A study of Mus musculus with 27 samples.

Results

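The comparison set 6 lung libraries from mice sensitized and given dexamethasone during the same protocol (group Dex_CDGHDM) against 5 from unsensitized mice (group Saline). These 11 libraries of the 27 in the series were chosen by their sample labels, the columns named for dexamethasone treatment and for unsensitized mice in a table of linear RNA and a table of circular RNA. All animals were BALB/c AnNHsd mice aged 87 days, each library came from left lung lobe, and no allele or transgene is named. Dex_CDGHDM mice received house dust mite extract with cyclic di-GMP, a bacterial second messenger used here as mucosal adjuvant, in a protocol of 35 days. They also received dexamethasone, a synthetic glucocorticoid, intraperitoneally in 3 doses of 3 mg/kg on days 11, 18 and 25, so that 10 days of the protocol followed the last dose. The label of the Saline mice gives saline as their treatment and no dexamethasone, so the contrast holds the sensitization and the drug together. The 10 CDG_HDM libraries, from mice sensitized in the same way with no drug named, served to test whether a distance from Saline differed with dexamethasone. The 6 AM155 libraries are labelled as antimiR-155 treated, with 3 doses of 2 mg/kg on days 11, 18 and 25. They were fitted together with the other groups and were not compared. Whole lobes hold airways, vessels, blood and attached tissue. In such bulk samples fewer cells of a type and less RNA per cell cannot be told apart.

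House dust mite extract carries allergens and microbial products that provoke airway inflammation with T cells, macrophages and antibody-secreting plasma cells. Cyclic di-GMP is sensed by STING, a protein of the endoplasmic reticulum that switches on interferon and NF-kappaB responses. T helper cells are commonly sorted by the cytokines they make: interferon gamma for type 1, interleukins 4, 5 and 13 for type 2, and interleukin 17 for type 17. Dexamethasone binds the glucocorticoid receptor, which enters the nucleus, raises genes such as Fkbp5 and Tsc22d3 and restrains many inflammatory genes. The question taken up here is what in the treated lung stayed away from the unsensitized lung, and what did not.

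Values are TPM, the share of a gene in all transcripts of a library, corrected for transcript length. A linear gene was tested on log2(TPM + 1) with limma when 5 or more of the 27 libraries had 1 TPM or more, and was called at a Benjamini-Hochberg adjusted p of 0.05. Changes are log2 differences, Dex_CDGHDM minus Saline, ± SE unless another contrast is named, and folds are on the scale of TPM + 1, which understates the change of low genes. A gene that was not called counts as within 1.5-fold when the 95% interval of its change lay inside 1.5-fold in both directions, and as unresolved otherwise. In this text the Saline values run in the order Saline 2, 4, 5, 8 and 10, and 3 Dex_CDGHDM values are the lowest, the median and the highest of the 6 libraries. Counts for a list cover those of its genes that passed the filter on low values. Each is to be read beside the shares over all genes tested, 7.59% called higher and 17.5% lower on the deposited scale. The other scalings are median-of-ratios scaling, quantile normalization and a common sum of the linear table. They called 2930 to 4452 of all 17437 genes higher and 1794 to 3377 lower. List counts given for those scalings are to be read beside these numbers. Where no test is named, an adjusted p comes from limma.

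The libraries of the 2 groups did not fill the TPM scale alike. Linear RNA summed to 834297 ± 19518 TPM in Saline and 724868 ± 57433 in Dex_CDGHDM (SD, n = 5 and 6; exact permutation test, two-sided, p = 0.00216, adjusted p = 0.00866 over 4 library measures), and the ranges did not overlap. The part of 1e+06 TPM left by the linear and circular sums was 10.1% ± 0.705 in Saline and 18.1% ± 5.17 in Dex_CDGHDM (exact permutation p = 0.00433, adjusted p = 0.00866). It is read here as transcripts outside both tables, which assumes that the 2 tables share 1 scale. The plot of library sums shows that Dex_CDGHDM 4 stood apart. Circular RNA of Sftpc was listed there at 197545 TPM, 19.8% of its whole scale, against 0 to 61473 in the other 5 treated libraries and 0 to 10683 in Saline. In bulk, each gene's TPM falls when other transcripts take more of the scale, and the median log2 change of all genes tested was -0.11. Under median-of-ratios scaling, quantile normalization and a common sum of the linear table that median was 0.00, -0.01 and 0.07. Only the genes that varied most over the whole series entered the principal components of these 11 libraries. That choice favours genes that differ between groups. On the first component, with 70.6% of the variance of those genes, Saline lay between -23.0 and -16.1 and Dex_CDGHDM between 8.92 and 24.3.

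**Figure D1:**
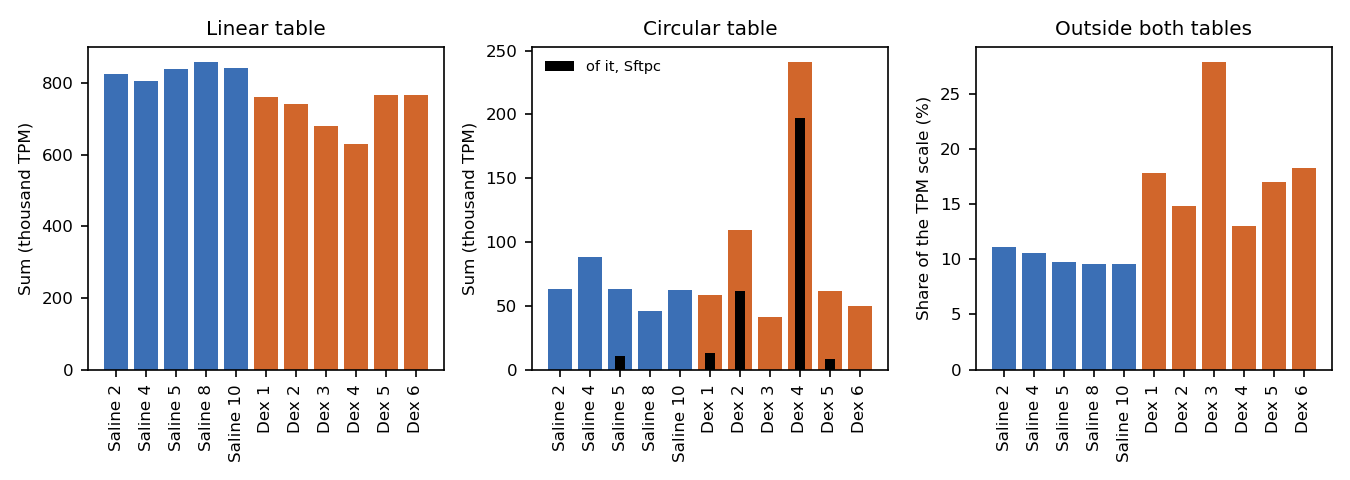
Sum of linear TPM, sum of circular TPM and share of the TPM scale outside both tables, 1 bar per library, Saline in blue and Dex_CDGHDM in orange. The narrow black bars give the part of the circular sum listed for Sftpc, which reaches 197545 TPM in Dex_CDGHDM 4.

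Most genes of the treated lung lay near the unsensitized level, and a large minority stayed away from it. Of 17437 genes tested, 12145 were within 1.5-fold of Saline (69.7%) and 916 were unresolved. Sensitized lung with no drug named was near Saline in most genes too, with 11323 within 1.5-fold in CDG_HDM minus Saline (64.9%). Higher levels were called for 1324 genes (7.59%) and lower levels for 3052 (17.5%). The changes were mostly small, since 2785 of the 4376 called genes lay under 1.5-fold, while 267 were at least 2-fold higher (1.53%) and 221 at least 2-fold lower (1.27%). Every Dex_CDGHDM library lay above every Saline library in 920 genes (5.28%) and below in 2100 (12.0%). Of the called genes 30.3% were higher on the deposited scale. That share was 51.9% under median-of-ratios scaling, 46.5% under quantile normalization and 71.3% with a common sum, so the balance of rises and falls depends on the scaling. Without Saline 4 the number lower was 4920.

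**Figure D2:**
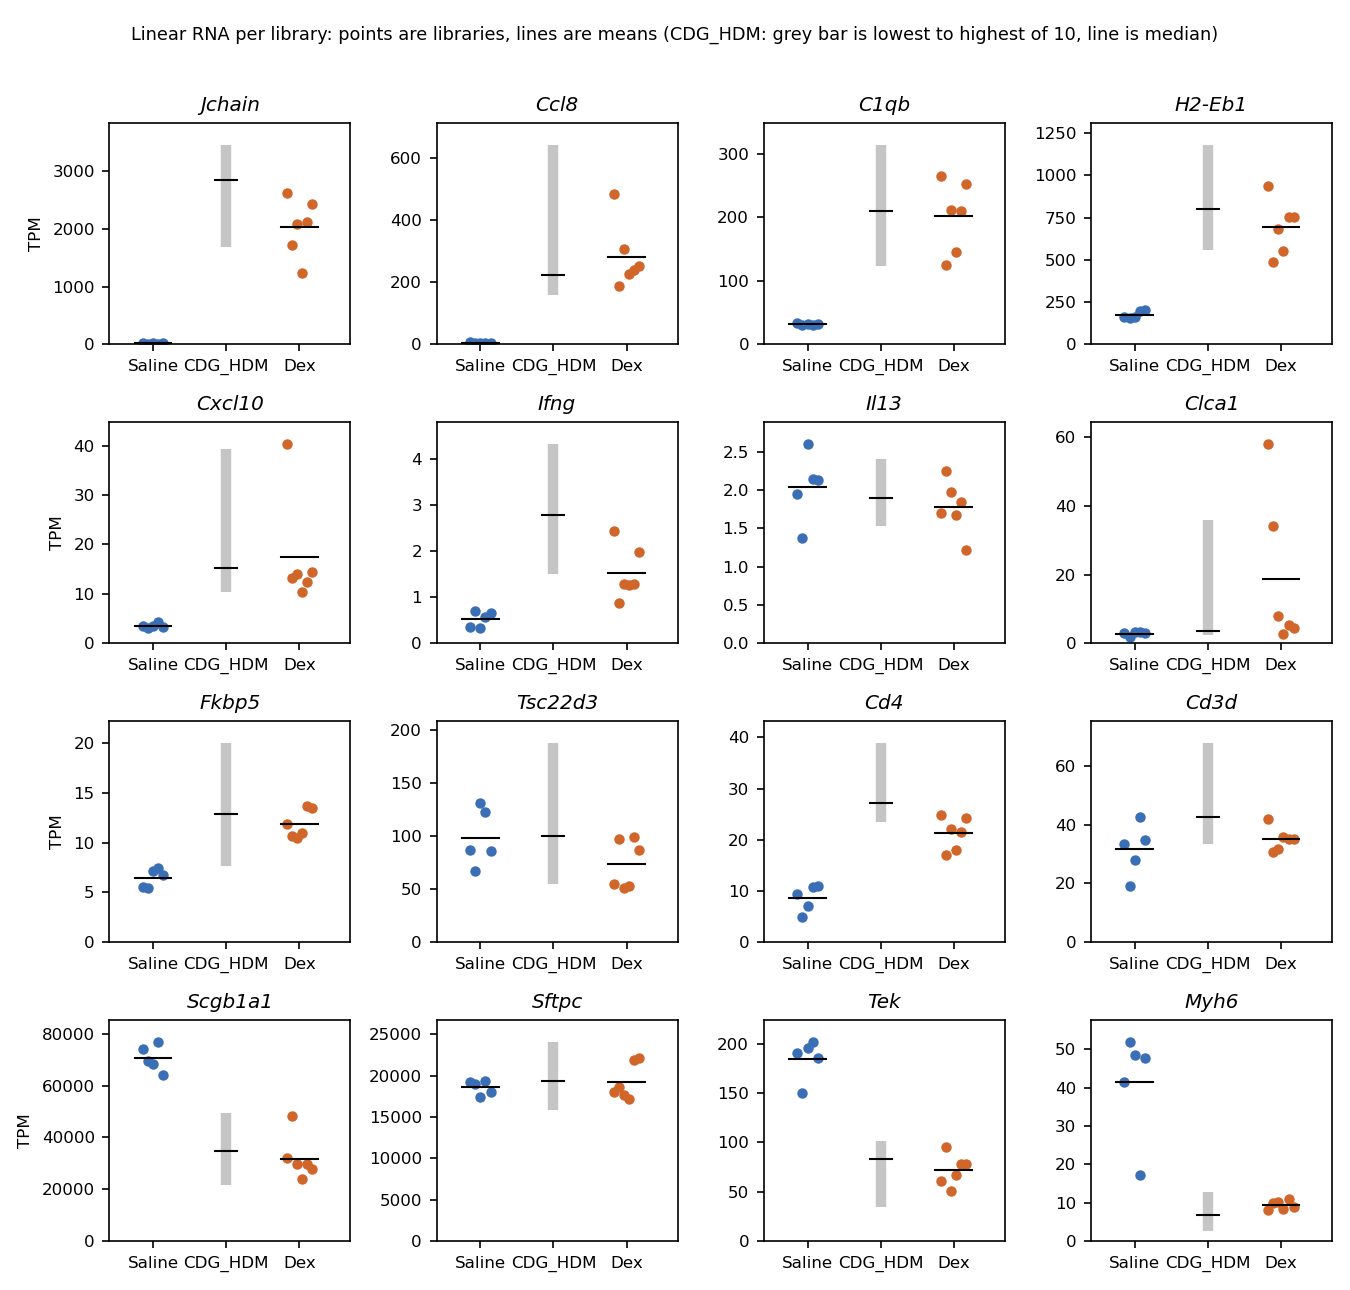
TPM of 16 linear genes in each Saline (blue) and Dex_CDGHDM (orange) library, with the mean as a line; the grey bar spans the 10 CDG_HDM libraries and its line is their median. Jchain, Ccl8, C1qb, H2-Eb1 and Cxcl10 lie far above Saline, Il13, Cd3d and Sftpc overlap it, and Scgb1a1, Tek and Myh6 lie below it.

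Of the genes named here, the one that stayed farthest above Saline was Jchain, which encodes the joining chain of multimeric IgA and IgM (chr5:88519809-88527891, GRCm38 with GENCODE M21). It stood at 22.2, 10.0, 16.4, 10.8 and 24.0 TPM in Saline and at 1229.8, 2109 and 2623 TPM in Dex_CDGHDM. The groups were far apart, with a change of 6.89 ± 0.22 (adjusted p = 2.63e-20), and Dex_CDGHDM 4 was the lowest treated library. Of 16 plasma cell genes 13 were higher and 0 lower, with a median change of 0.97 beside -0.11 over all genes. Mzb1, an endoplasmic reticulum cochaperone of antibody-secreting cells, stood at 15.6, 12.3, 16.2, 18.4 and 18.3 TPM in Saline and at 49.8, 94.8 and 106 in treated lung (2.31 ± 0.19). The transcription factor Irf4, needed for plasma cell formation, went from 12.4, 6.75, 14.8, 13.3 and 18.1 TPM to 39.8, 61.5 and 74.5 (2.15 ± 0.20). Derl3, a part of the machinery that removes misfolded proteins from the endoplasmic reticulum, changed by 1.73 ± 0.17. Other members were within 1.5-fold: the surface proteoglycan Sdc1 at 0.14 ± 0.10, the kinase Pim2 at -0.05 ± 0.10 and the transcription factor Prdm1 at 0.17 ± 0.10. Immunoglobulin genes are not named here, though any that passed the filter on low values were tested and counted.

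Genes of endoplasmic reticulum folding, on which secretory cells depend, rose in 4 of 15 cases, or 9 to 11 under the other scalings, and 0 fell. Sdf2l1, a chaperone cofactor, changed by 0.70 ± 0.13 and Xbp1, the transcription factor of the unfolded protein response, by 0.64 ± 0.12. The chaperones Hspa5 (0.13 ± 0.18) and Calr (0.12 ± 0.14) were within 1.5-fold. Pigr, the epithelial receptor that carries IgA and IgM into the airway, stood at 47.8, 30.4, 32.3, 30.0 and 38.8 TPM in Saline and at 116, 164 and 237 in Dex_CDGHDM, with no overlap (2.18 ± 0.20, adjusted p = 4.17e-09).

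B cell genes gave a different picture from plasma cell genes. Of 16, 1 was higher (2 under the other scalings), 4 were within 1.5-fold and 11 were unresolved, with a median change of 0.00. Without Saline 4, 1 was lower. The gene called was Cxcl13, the chemokine that draws B cells into follicles, at 10.9, 7.61, 5.75, 9.09 and 9.85 TPM in Saline and 19.2, 30.5 and 38.0 in treated lung (1.67 ± 0.20, adjusted p = 2.40e-07). Complement receptor Cr2 (-0.21 ± 0.13), the IgE receptor Fcer2a (-0.09 ± 0.18) and the CXCL13 receptor Cxcr5 (0.00 ± 0.19) were within 1.5-fold. Among 12 genes of lymphoid follicles 5 were higher and 2 lower, beside 7.59% and 17.5% of all genes. Without Dex_CDGHDM 1, 3 were higher. The lymph node chemokines Ccl21a (0.94 ± 0.11) and Ccl19 (0.84 ± 0.26) and the lymphotoxin Lta (1.02 ± 0.17) were among those higher.

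Macrophage and complement genes stayed high. Of 26 macrophage and dendritic cell genes 19 were higher and 3 lower, with a median change of 1.05. C1qb, a chain of the first complement component, stood at 33.7, 30.4, 31.2, 31.0 and 31.9 TPM in Saline and at 125, 210.2 and 265 TPM in Dex_CDGHDM (2.58 ± 0.19, adjusted p = 7.95e-11). Its 2 partners moved with it, C1qa by 2.45 ± 0.18 and C1qc by 2.49 ± 0.19. No treated library came near the narrow Saline range of C1qb. Ms4a7, a membrane protein of macrophages, went from 6.85, 4.94, 9.06, 9.94 and 8.34 TPM to 38.9, 74.7 and 100.5 TPM (3.02 ± 0.20), and the lipid receptor Trem2 changed by 2.45 ± 0.20. The microglia and macrophage marker Aif1 changed by 2.30 ± 0.22. The integrin Itgam (0.26 ± 0.14), the phagocytic receptor Mertk (-0.13 ± 0.11) and the dendritic cell lectin Clec9a (-0.13 ± 0.15) were within 1.5-fold.

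Genes linked to alternative activation of macrophages rose in 7 of 10 cases and fell in 0, with a median of 0.77. Mmp12, the macrophage elastase, stood at 5.30, 5.36, 5.20, 6.31 and 7.09 TPM in Saline and at 16.5, 47.5 and 99.0 in treated lung, where Dex_CDGHDM 4 was the lowest library (2.73 ± 0.35). The chitinase-like protein gene Chil3 changed by 1.31 ± 0.25 and the checkpoint ligand Pdcd1lg2 by 1.35 ± 0.19. Chil3 also stands in a list of 12 alveolar macrophage genes, of which it and the scavenger receptor Msr1 (1.95 ± 0.20) were higher and 3 lower, such as the bacterial receptor Marco (-0.69 ± 0.19); under the other scalings 3 to 5 were higher. Retnla, a secreted protein gene induced by interleukins 4 and 13, was unresolved. It stood at 53.4, 63.0, 55.0, 95.8 and 59.9 TPM in Saline, at 306 TPM in both Dex_CDGHDM 1 and 2 and between 22.2 and 97.9 TPM in the other 4 treated libraries.

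Of 14 acute phase and complement genes 10 were higher and 1 lower (2 lower without Saline 5 or 8), with a median of 1.06. Slpi, an inhibitor of neutrophil elastase, went from 35.0, 42.5, 37.5, 39.7 and 44.7 TPM to 287, 447 and 583 TPM (3.41 ± 0.22, adjusted p = 1.86e-12). The acute phase protein gene Saa3 went from 31.9, 9.50, 15.3, 14.7 and 16.4 TPM to 60.6, 177 and 274 TPM (3.15 ± 0.36), without overlap. Outside that list Lcn2, which binds bacterial iron carriers, stood at 84.9, 58.7, 64.1, 68.4 and 112 TPM in Saline and 271, 478 and 679.6 TPM in Dex_CDGHDM (2.61 ± 0.22). Complement factor Cfb changed by 1.35 ± 0.20 and the central component C3 by 1.08 ± 0.14. Serping1 (0.05 ± 0.09) and Lbp (0.09 ± 0.13), an inhibitor of complement and a binder of lipopolysaccharide, were within 1.5-fold. The interleukin 1 and inflammasome list held 9 higher and 1 lower of 15, with Casp1, the protease that matures interleukin 1 beta, at 1.09 ± 0.13, the DNA sensor Aim2 at 0.85 ± 0.19 and Il1b at 0.64 ± 0.19.

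The interferon gamma program stayed above the unsensitized lung while most genes of the type I interferon list did not. Of 30 interferon gamma and type 1 genes 24 were higher and 0 lower, against 7.59% of all genes higher, and their median change was 1.00. Of 20 type I interferon stimulated genes 2 were higher, 2 lower and 15 within 1.5-fold, with a median of -0.09; under the other scalings 4 to 6 were higher. The number lower was 4 without Saline 4 or Dex_CDGHDM 1 and 1 without Saline 8 or Dex_CDGHDM 3 or 4. The 2 lists had medians of 1.13 and -0.07 in CDG_HDM minus Saline, a contrast with the same Saline libraries. The summed level of the first list was 486 to 661 TPM in Saline and 856 to 1971 TPM in Dex_CDGHDM, that of the type I list 321 to 410 and 325 to 461 TPM.

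Ubd, a ubiquitin-like modifier induced by interferon gamma, was nearly silent in Saline (0.661, 0.373, 0.441, 0.168 and 0.259 TPM) and stood at 11.5, 16.3 and 52.2 TPM in Dex_CDGHDM (3.88 ± 0.36, adjusted p = 3.64e-09). Cxcl10, a chemokine for CXCR3-bearing T cells, went from 3.57, 3.06, 3.56, 4.29 and 3.34 TPM to 10.4, 13.6 and 40.3 TPM (1.86 ± 0.34, adjusted p = 0.000117). The highest library of both genes was Dex_CDGHDM 1, well above the other 5, which in turn lay above Saline. Igtp, a GTPase that guards against vacuolar parasites, went from 17.9, 13.1, 11.8, 19.1 and 16.6 TPM to 32.7, 45.7 and 102 TPM (1.61 ± 0.25), and its relative Iigp1 changed by 2.05 ± 0.29. The enzyme Nos2, which makes nitric oxide, changed by 1.04 ± 0.23. Ifng itself, the gene of interferon gamma, was low throughout, at 0.345, 0.688, 0.318, 0.574 and 0.664 TPM in Saline and 0.865, 1.28 and 2.42 TPM in treated lung (0.71 ± 0.16, adjusted p = 0.00158). Its change was 1.31 in CDG_HDM, and the difference between the 2 sensitized groups was -0.60 ± 0.14 (adjusted p = 0.196). The type 1 transcription factors Tbx21 (-0.07 ± 0.14) and Stat4 (0.11 ± 0.12) and the receptor chain Il12rb2 (-0.10 ± 0.09) were within 1.5-fold. Without any 1 of the 11 libraries 23 to 25 genes of the list were higher.

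In the type I list, Isg15, a ubiquitin-like protein, stood at 20.2, 20.3, 15.9, 22.3 and 19.6 TPM in Saline and at 13.6, 15.6 and 18.9 TPM in Dex_CDGHDM (-0.30 ± 0.13). Ifit3, which helps to recognize viral RNA, was at 33.3, 24.7, 27.5, 38.0 and 28.1 TPM and 18.6, 23.3 and 33.0 TPM (-0.30 ± 0.13). Both had overlapping libraries and were not called, with adjusted p values of 0.105 and 0.0984. The antiviral genes Rsad2 (-0.60 ± 0.16) and Ifit1 (-0.36 ± 0.12) fell, and the nucleic acid sensor Zbp1 (0.91 ± 0.20) and the synthetase Oas1a (0.64 ± 0.14) rose. Of 10 STING pathway genes 3 were higher, 1 lower and 6 within 1.5-fold, and 6 to 9 were higher under the other scalings. The number lower was 0 without any 1 of the Saline libraries or without Dex_CDGHDM 3, 4 or 5. Tmem173, which encodes STING, went from 16.6, 12.3, 15.5, 18.7 and 19.2 TPM to 21.0, 26.3 and 31.2 TPM (0.65 ± 0.12), while its partners Tbk1 (0.08 ± 0.10) and Irf3 (-0.04 ± 0.11) were within 1.5-fold.

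**Figure D3:**
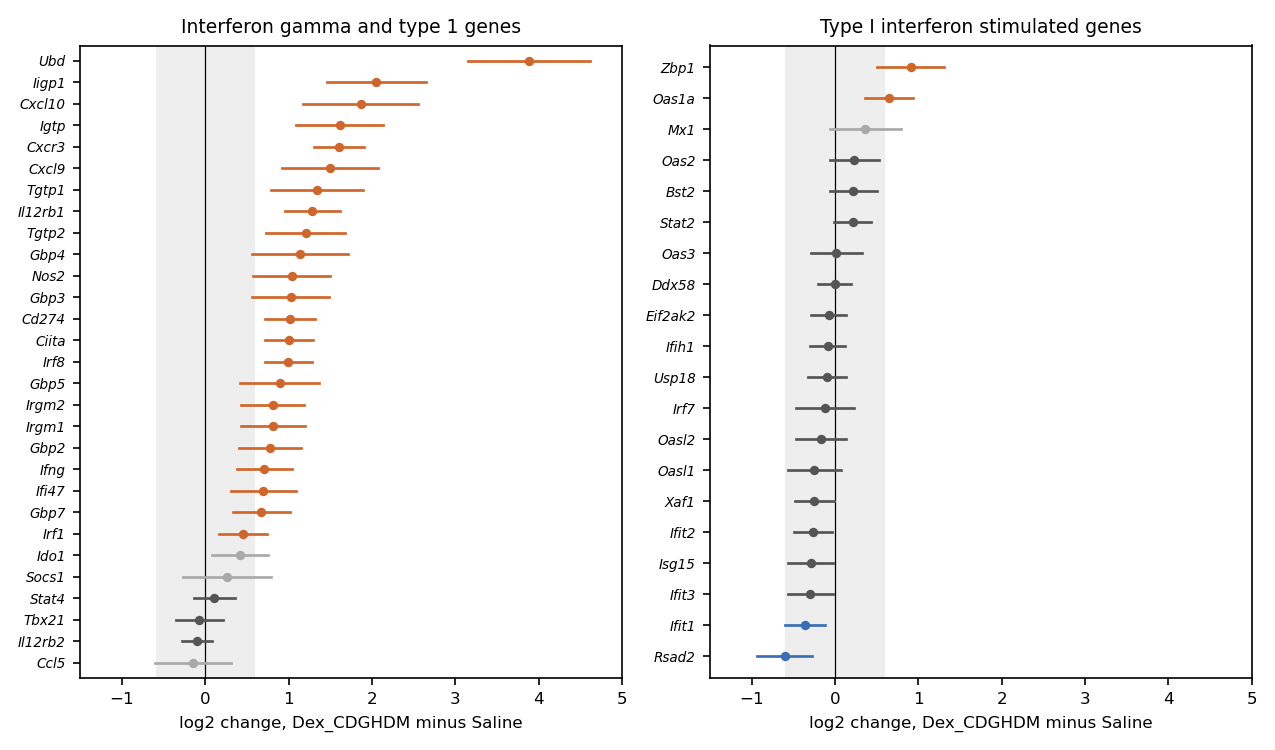
Log2 change of Dex_CDGHDM minus Saline with its 95% interval for 29 of the 30 interferon gamma and type 1 genes and for 20 type I interferon stimulated genes; the grey band marks 1.5-fold in both directions. Orange marks called higher, blue called lower, dark grey within 1.5-fold and light grey unresolved; 23 genes on the left are orange and 15 on the right lie within the band.

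The 2 lists can be set beside their promoters, since interferon target genes carry a response element with the core GAAANNGAA, bound by STAT and IRF factors. In windows from 250 bases before to 50 after the start of each RefSeq gene (GRCm38.p6, both strands searched), 14 of 22 genes with a window in the interferon gamma list held the core (63.6%). Of 16 in the type I list 11 did (68.8%), and of 13251 tested genes with a window 1209 did (9.12%). A match is a description of letters, and the windows are of the reference assembly, not of BALB/c. The 250 bases before the start of 2 genes that stayed high and 2 that were within 1.5-fold are shown 5′ to 3′ on the gene's strand, with each match to the core, on either strand, in capitals.
Cxcl10, chr5:92348890-92349139, minus strand: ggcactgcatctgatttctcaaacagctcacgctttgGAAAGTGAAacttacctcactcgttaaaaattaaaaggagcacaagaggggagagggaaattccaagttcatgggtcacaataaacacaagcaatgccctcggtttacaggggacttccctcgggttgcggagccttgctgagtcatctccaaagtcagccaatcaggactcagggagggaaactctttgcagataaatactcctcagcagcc
Igtp, chr11:58199306-58199555, plus strand: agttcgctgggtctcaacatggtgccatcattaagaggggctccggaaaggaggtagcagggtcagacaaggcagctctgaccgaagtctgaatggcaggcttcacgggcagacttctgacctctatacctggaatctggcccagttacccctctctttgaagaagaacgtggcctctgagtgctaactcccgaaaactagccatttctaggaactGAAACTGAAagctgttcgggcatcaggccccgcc
Ifit3, chr19:34583279-34583528, plus strand: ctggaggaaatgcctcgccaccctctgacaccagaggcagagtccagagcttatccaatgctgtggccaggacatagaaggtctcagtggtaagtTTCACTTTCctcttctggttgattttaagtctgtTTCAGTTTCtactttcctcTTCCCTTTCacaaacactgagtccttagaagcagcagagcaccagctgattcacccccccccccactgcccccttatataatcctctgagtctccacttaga
Isg15, chr4:156200819-156201068, minus strand: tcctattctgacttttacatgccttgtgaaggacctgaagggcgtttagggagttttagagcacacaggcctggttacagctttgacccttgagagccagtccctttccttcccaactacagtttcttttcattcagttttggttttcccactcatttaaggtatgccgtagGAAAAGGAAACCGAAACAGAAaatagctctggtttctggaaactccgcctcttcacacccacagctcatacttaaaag
The core begins 213 bases before the start in Cxcl10 and 34 in Igtp, 1 match each, while Ifit3 and Isg15 hold 3 matches each, some overlapping in Isg15. The gamma activated site TTCNNNGAA, bound by STAT dimers, was in 45.5% of the windowed genes of the interferon gamma list, 25% of those in the type I list and 8.81% of all. The 250 bases before the start of Ubd held neither the core nor that site.

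Antigen presentation genes were higher almost throughout their lists. Of 11 genes of MHC class II presentation 10 were higher and 0 lower (median 1.55), and of 16 of MHC class I and the immunoproteasome 14 were higher and 0 lower (median 1.19). H2-Eb1, a class II beta chain, went from 160.2, 158, 159, 194 and 205 TPM to 488, 717 and 939 TPM (1.96 ± 0.17, adjusted p = 1.69e-09). The protease Ctss, which trims the invariant chain, went from 117, 129, 112, 131 and 135 TPM to 377, 641 and 749 TPM (2.22 ± 0.18). Ciita, the class II transactivator, changed by 1.00 ± 0.14, and H2-Ob, which tempers peptide loading, was within 1.5-fold at 0.11 ± 0.22. For class I, the transactivator Nlrc5 went from 15.3, 9.94, 10.3, 14.2 and 15.7 TPM to 29.9, 41.9 and 68.0 TPM (1.65 ± 0.18), the peptide transporter Tap1 changed by 1.47 ± 0.21 and the light chain B2m by 1.34 ± 0.12. Class I heavy chain genes such as H2-K1 (1.47 ± 0.14) and H2-Q7 (1.51 ± 0.19) resemble each other closely, and the counting could have split reads between them.

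T cell genes rose in part. Of 24, 14 were higher, 0 lower and 9 within 1.5-fold, with a median change of 0.55. Cd4 stood at 9.36, 4.88, 7.01, 10.8 and 10.9 TPM in Saline and at 17.03, 21.7 and 24.8 in Dex_CDGHDM (1.252 ± 0.15, adjusted p = 5.71e-07), without overlap. Genes of activated T cells were among the largest changes: the tissue-homing receptor Cxcr6 (1.69 ± 0.20), the costimulator Icos (1.45 ± 0.16) and the inhibitory receptor Pdcd1 (1.44 ± 0.18). By contrast Cd3d, a chain of the T cell receptor complex, was at 33.4, 19.1, 28.0, 42.6 and 34.7 TPM and 30.9, 35.1 and 41.8 TPM (0.19 ± 0.16), and Cd8a, of cytotoxic T cells, at 0.01 ± 0.17. Foxp3, the factor of regulatory T cells, was within 1.5-fold (-0.08 ± 0.11). Cd2, an adhesion receptor, was at 26.6, 21.3, 27.1, 40.0 and 38.9 TPM and 26.7, 29.4 and 33.9 TPM (-0.02 ± 0.12) and at 0.47 ± 0.11 in CDG_HDM minus Saline. The test between the 2 sensitized groups gave -0.49 ± 0.10 (adjusted p = 0.0969), which misses the threshold.

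NK and cytotoxic cell genes lay below Saline. Of 10, 7 were lower, or 4 to 6 under the other scalings, and 0 higher, against 17.5% of all genes lower, with a median change of -0.53. Gzma, a granule protease, went from 56.4, 39.0, 39.8, 66.7 and 68.9 TPM to 14.7, 18.2 and 24.8 TPM (-1.41 ± 0.19, adjusted p = 3.14e-06). The pore protein gene Prf1 went from 9.55, 5.74, 7.91, 11.2 and 11.2 TPM to 3.64, 4.18 and 4.82 TPM (-0.93 ± 0.13), and the activating receptor Ncr1 changed by -0.73 ± 0.14. The libraries of Gzma and Prf1 did not overlap, and their changes in CDG_HDM minus Saline were -1.08 ± 0.18 and -0.65 ± 0.12. The granule gene Nkg7 (0.02 ± 0.21) and the transcription factor Eomes (-0.26 ± 0.11) were within 1.5-fold.

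Among type 2 genes the chemokines Ccl8, Ccl17 and Ccl22 stayed high, the chemokine Ccl24 was lower (-0.32 ± 0.10), and the eotaxin gene Ccl11 (0.15 ± 0.13) and the cytokines Il4, Il5 and Il13 were within 1.5-fold. Of 18, 6 were higher, 4 lower and 8 within 1.5-fold, with a median of -0.02. Il13, which drives mucus and airway reactivity, stood at 1.95, 1.37, 2.60, 2.14 and 2.13 TPM in Saline and at 1.21, 1.77 and 2.24 TPM in treated lung (-0.13 ± 0.11, interval -0.35 to 0.10). Il5, the growth factor of eosinophils, stood at 13.9, 13.3, 21.5, 13.6 and 13.4 TPM and 9.94, 12.3 and 13.2 TPM. Every treated library lay just below the lowest Saline library for Il5, yet the change of -0.29 ± 0.11 missed the threshold (adjusted p = 0.0604). The shared receptor chain Il4ra (-0.29 ± 0.14) and the signal transducer Stat6 (0.01 ± 0.11) were within 1.5-fold. Ccl8, a ligand of CCR8 in the mouse (chr11:82115185-82116799), went from 6.89, 4.46, 2.44, 3.44 and 4.75 TPM to 188, 244 and 484 TPM (5.70 ± 0.33, adjusted p = 2.63e-13). Ccr8, its receptor, went from 1.05, 0.514, 0.597, 1.37 and 1.04 TPM to 2.78, 3.92 and 4.35 TPM (1.29 ± 0.17), and the chemokines Ccl17 and Ccl22 changed by 0.73 ± 0.18 and 0.67 ± 0.18. Of the epithelial alarm cytokines, Il33 was higher (0.45 ± 0.15) and Tslp lower (-0.45 ± 0.12), and the Il33 receptor gene Il1rl1 was lower too (-0.38 ± 0.14). The number lower was 7 without Saline 4, 2 without Saline 5 or 10 or Dex_CDGHDM 1, 3 or 4, and 1 to 4 under the other scalings.

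Type 17 genes included 6 higher and 0 lower of 11 (median 0.69). Il17a itself was low, at 0.874, 0.397, 1.11, 0.973 and 1.13 TPM in Saline and 1.55, 2.40 and 4.10 TPM in Dex_CDGHDM (0.89 ± 0.19, adjusted p = 0.000916), and did not overlap. Ccl20, which draws CCR6-bearing cells, stood at 17.5, 4.39, 4.79, 5.52 and 4.69 TPM and 13.8, 18.7 and 23.6 TPM (1.43 ± 0.24); Saline 2 lay among the treated libraries. Il17f (0.12 ± 0.10) and the receptor chain Il17ra (0.10 ± 0.12) were within 1.5-fold.

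Neutrophil and eosinophil genes were called in both directions. Over all genes 7.59% were higher and 17.5% lower, the shares to set beside each list of this paragraph. Of 16 neutrophil genes 1 was higher (Lcn2, which epithelium also makes) and 4 lower. Under the other scalings 1 to 3 were higher and 1 to 3 lower, and the number lower was 1 to 2 without Saline 2 or 10 or Dex_CDGHDM 3, 4 or 5. Retnlg, a secreted protein gene of neutrophils, went from 57.3, 46.9, 46.2, 70.5 and 70.9 TPM to 16.6, 22.4 and 41.5 TPM (-1.18 ± 0.24, adjusted p = 0.000433), while the chemokine receptor Cxcr2 was within 1.5-fold (-0.11 ± 0.13). The calprotectin chain S100a8 changed by -0.81 ± 0.28, with overlapping libraries. Of 5 eosinophil genes the granule protein Prg2 rose (0.89 ± 0.15) and the eotaxin receptor Ccr3 fell (-0.65 ± 0.10), together with Alox15 (-0.62 ± 0.21); 1 of these falls was called without Saline 2 or 10 or Dex_CDGHDM 3, 4 or 5. Of 9 mast cell and basophil genes 4 were lower, Gata2 (-1.01 ± 0.22) and the growth factor receptor Kit (-0.65 ± 0.15) among them, and 2 without Saline 2, 5 or 10 or Dex_CDGHDM 4 or 6. Both genes are also used by other cells of the lung.

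Mucus genes were uneven among the treated libraries. Clca1, a secreted protein that processes mucus, stood at 3.00, 1.75, 3.15, 3.34 and 2.84 TPM in Saline. In Dex_CDGHDM it stood at 58.0 TPM in library 1 and 34.2 in library 2, and at 2.63 to 7.81 TPM in the other 4, which overlap Saline (1.61 ± 0.59, adjusted p = 0.0428). Muc5ac, an airway mucin, was at 0.669, 0.388, 0.550, 0.413 and 0.972 TPM in Saline and 0.840, 1.11 and 3.39 TPM in treated lung, with Dex_CDGHDM 1 the highest (0.60 ± 0.21, adjusted p = 0.0332). The same 2 libraries were the highest of Retnla. Of 15 mucus and goblet cell genes 6 were higher and 2 lower. Without Dex_CDGHDM 1 or without Saline 4, 5 or 8 the number higher was 2 to 3, and the number lower was 0 to 1 without Saline 2, 5, 8 or 10 or Dex_CDGHDM 3, 4, 5 or 6. The anion exchanger Slc26a4 went from 3.30, 3.66, 4.10, 3.45 and 6.79 TPM to 12.9, 24.6 and 34.0 TPM (2.26 ± 0.28) without overlap. The goblet cell factors Spdef (-0.02 ± 0.12) and Foxa3 (0.15 ± 0.10) were within 1.5-fold.

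The glucocorticoid response list did not sit on one side of Saline. Of 28 genes 4 were higher, 7 lower, 8 within 1.5-fold and 9 unresolved, and their median change was -0.02. Over all genes 7.59% were higher and 17.5% lower, with a median of -0.11. Fkbp5, an inhibitory cochaperone of the glucocorticoid receptor, stood at 5.54, 5.45, 7.18, 7.50 and 6.81 TPM in Saline and at 10.5, 11.4 and 13.8 TPM in Dex_CDGHDM, without overlap (0.78 ± 0.18, adjusted p = 0.00172). In CDG_HDM, where no drug is named, its change from the same Saline libraries was 0.84 ± 0.16, and the 2 sensitized groups differed by -0.06 ± 0.15 (adjusted p = 0.9998). Tsc22d3, which encodes the glucocorticoid-induced leucine zipper, stood at 86.3, 66.6, 130.4, 122 and 85.9 TPM and 51.3, 70.3 and 99.0 TPM, a wide overlap (interval -0.999 to 0.13). Zbtb16 was at 20.4, 12.6, 51.3, 47.3 and 51.3 TPM and 11.5, 21.0 and 39.9 TPM (interval -1.70 to 0.46) and the clock gene Per1 at 17.6, 17.4, 29.7, 56.3 and 22.5 TPM and 16.97, 23.9 and 46.1 TPM (interval -0.69 to 0.64). These 3 classical targets were spread widely within both groups. Their intervals leave a fall of 1.5-fold open for all 3, and a rise of that size for Per1 only. The metallothioneins Mt1 (0.49 ± 0.11) and Mt2 (0.57 ± 0.11) rose with overlapping libraries. Lcn2, described above, was the other riser of the list.

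Nr3c1, the receptor itself, stood at 85.9, 75.0, 88.3, 87.5 and 85.2 TPM in Saline and 62.6, 68.2 and 77.3 TPM in treated lung (-0.29 ± 0.10, adjusted p = 0.0343), with a small overlap. Hsd11b1, the enzyme that regenerates active glucocorticoid within tissue, went from 153, 111, 154, 164 and 133 TPM to 57.0, 72.6 and 113 TPM (-0.88 ± 0.20). The metabolic targets Klf15 (-0.87 ± 0.26) and Pdk4 (-0.85 ± 0.20) and the phosphatase Dusp1 (-0.76 ± 0.27) were lower. Anxa1, a lipid-binding mediator of glucocorticoid action, was within 1.5-fold (-0.02 ± 0.11), as were the kinase Sgk1 (0.24 ± 0.12) and the NF-kappaB inhibitor Nfkbia (0.26 ± 0.10). Under the 3 other scalings 7 to 10 genes of the list were higher and 5 to 6 lower.

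**Figure D4:**
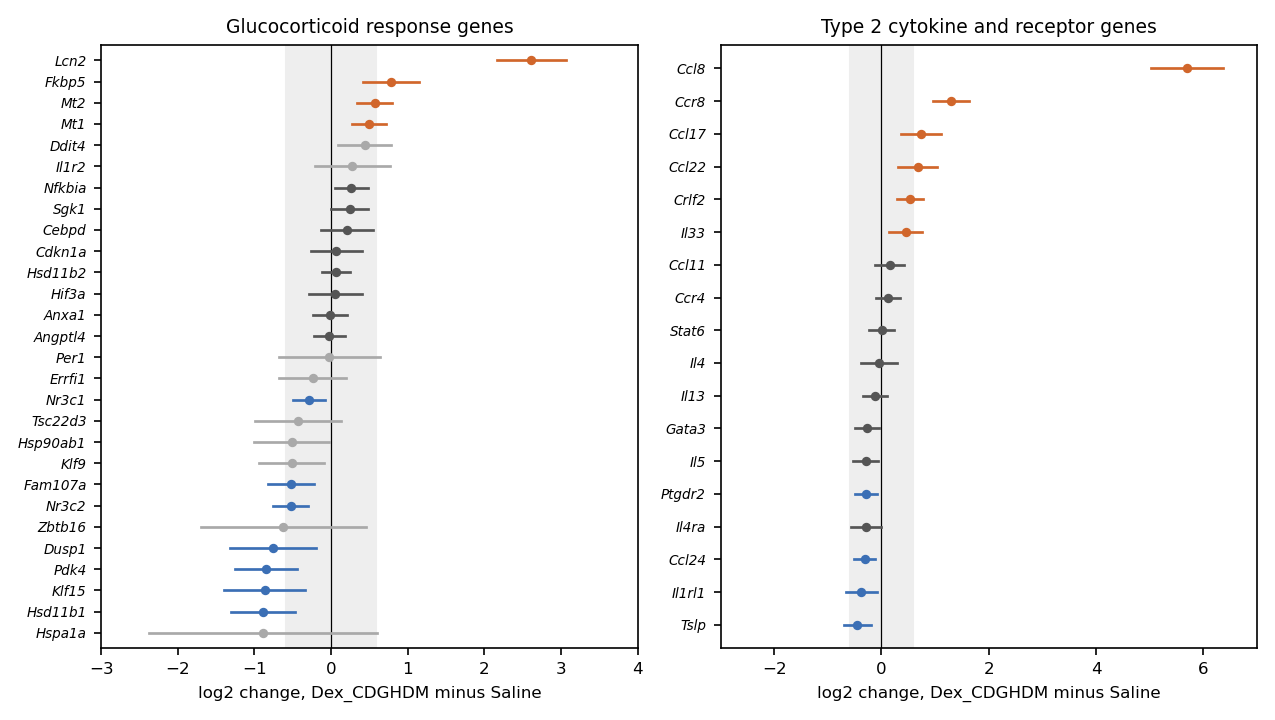
Log2 change of Dex_CDGHDM minus Saline with its 95% interval for 28 glucocorticoid response genes and 18 type 2 genes, coloured as in the interferon plot; the grey band marks 1.5-fold in both directions. Tsc22d3, Per1 and Zbtb16 have intervals that leave the band, and Il4, Il5 and Il13 lie inside it.

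Clock and immediate early genes also differed between the groups. Of 18 clock genes 3 were higher and 6 lower. Nr1d2, a repressor of the clock, went from 5.59, 3.25, 7.41, 11.3 and 15.4 TPM to 18.1, 23.9 and 36.7 TPM (1.59 ± 0.40, adjusted p = 0.00397), and Arntl, which it represses, from 25.8, 21.7, 28.9, 26.8 and 24.6 TPM to 14.4, 16.1 and 17.9 TPM (-0.64 ± 0.21). Neither gene overlapped between the groups, and Nr1d2 ran widely within Saline. The labels give no time of day of tissue collection, and its part in these values was not tested. Of 19 immediate early genes 9 were lower and 0 higher (2 higher under the other scalings, 1 without Saline 10 or Dex_CDGHDM 3), Ier3 (-0.84 ± 0.17), Klf2 (-0.79 ± 0.16) and the orphan receptor Nr4a1 (-1.15 ± 0.32) among them, and Dex_CDGHDM 2 was the highest treated library of all 3.

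Club and ciliated cell genes of the airway were mostly lower. Of 15 club cell genes 12 were lower and 1 higher, with a median change of -1.15. Scgb1a1, the secretoglobin that marks club cells (chr19:9083636-9087958), stood at 73961, 69442, 68382, 76730 and 64070 TPM in Saline and at 23895, 29598 and 48233 TPM in Dex_CDGHDM (-1.18 ± 0.18, adjusted p = 1.56e-05). No library overlapped, and Dex_CDGHDM 2 was the highest treated library. Its change was 0.00 under quantile normalization, which gives the top gene of each library the same value. Bpifa1, an airway surface protein, went from 336, 361, 407, 105 and 366 TPM to 6.56, 18.7 and 53.3 TPM (-3.96 ± 0.78, adjusted p = 0.000328), the largest called fall among genes with at least 5 TPM. The detoxifying enzymes Gsta3 (164, 137, 143, 159 and 109 TPM to 28.3, 34.6 and 68.5 TPM, -1.89 ± 0.24) and Cyp4b1 (-1.57 ± 0.20) were lower too. Of 16 ciliated cell genes 11 were lower and 0 higher, 7 without Saline 5 or 10 or Dex_CDGHDM 4. Tppp3, which stabilizes microtubules, went from 391, 470.1, 459, 410.3 and 432 TPM to 157, 208 and 230.4 TPM (-1.14 ± 0.14), while the ciliary parts Rsph1 (-0.20 ± 0.15) and Cfap126 (-0.25 ± 0.13) were within 1.5-fold.

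The 2 alveolar cell types differed in their counts. Of 14 alveolar type 2 cell genes 3 were higher (7 to 9 under the other scalings), 1 lower and 9 within 1.5-fold, and of 12 alveolar type 1 cell genes 7 were lower and 0 higher. Sftpc, the surfactant protein of type 2 cells, stood at 19179, 18982, 17419, 19307 and 17999 TPM in Saline and 17162, 18321 and 22103 TPM in treated lung (0.04 ± 0.12), so linear RNA of this defining marker was abundant in both groups. Surfactant protein Sftpd went from 502, 477, 557, 582 and 572 TPM to 752, 970.3 and 1323 TPM (0.88 ± 0.16, adjusted p = 9.49e-05). The type 1 cell genes Hopx (440.1, 418, 445, 499 and 417 TPM to 209.6, 244 and 318 TPM, -0.78 ± 0.15), Cav1 (-0.97 ± 0.17) and Clic5 (-0.74 ± 0.16) were lower, whereas Pdpn (-0.01 ± 0.11) and the junction protein Cldn18 (-0.04 ± 0.10) were within 1.5-fold. Cav1 is shared with endothelium.

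Vessel and muscle genes were lower as groups. Of 19 endothelial genes 16 were lower and 0 higher (median -0.75), and the count was 16 to 17 with 1 library left out. Tek, the angiopoietin receptor, went from 190.4, 150, 195, 202 and 185 TPM to 51.1, 72.5 and 95.1 TPM (-1.37 ± 0.21, adjusted p = 1.74e-05), and the endothelin receptor Ednrb changed by -1.38 ± 0.22. The capillary enzyme Car4 went from 125, 123, 126, 131 and 130.5 TPM to 35.7, 59.1 and 78.2 TPM (-1.16 ± 0.20). Sox17 (-0.23 ± 0.16) and Emcn (0.19 ± 0.13), of arterial and venous endothelium, were within 1.5-fold. Of 8 lymphatic endothelial genes 3 were higher and 2 lower (1 lower without Saline 5 or Dex_CDGHDM 3), with Lyve1 at -1.58 ± 0.34 and the guidance protein Reln at 0.90 ± 0.11. Of 12 smooth muscle genes 10 were lower and 0 higher, such as Cnn1 (96.4, 90.7, 101, 72.5 and 106 TPM to 20.8, 30.1 and 44.9 TPM, -1.56 ± 0.28) and the actin Acta2 (-1.03 ± 0.22). Matrix genes were mixed, with 8 higher (11 to 13 under the other scalings) and 3 lower of 24: the matricellular proteins Spp1 (1.34 ± 0.17) and Tnc (1.17 ± 0.24) and collagen Col3a1 (0.72 ± 0.19) rose, the fibroblast receptor Pdgfra (-0.76 ± 0.18) fell, and Postn (-0.14 ± 0.13) was within 1.5-fold.

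Markers of tissue that lies around or within a lobe were lower as well. All 17 cardiac muscle genes tested were lower, with a median of -1.70. Myh6, the atrial myosin chain, stood at 41.4, 51.9, 48.5, 17.2 and 47.8 TPM in Saline and 8.15, 9.41 and 10.9 TPM in Dex_CDGHDM (-1.94 ± 0.29), and the regulatory gene Tnnc1 went from 104, 110.2, 96.2, 40.1 and 96.0 TPM to 10.1, 16.3 and 19.4 TPM (-2.36 ± 0.36). In mice, heart muscle cells also line the pulmonary veins. Saline 8 was the lowest Saline library of both genes and lay above every treated library. Of 10 adipocyte genes 8 were lower and 0 higher, with Cfd at 155.1, 115, 142, 94.4 and 137 TPM and 4.97, 10.8 and 29.6 TPM (-3.44 ± 0.68) and the hormone Adipoq at -2.30 ± 0.51. The summed level of the adipocyte list was 381 to 544 TPM in Saline and 116 to 218 in treated lung. Of 10 erythroid genes 9 were lower; their sum, mostly globin, was 27124 to 41306 TPM in Saline and 8073 to 13977 in Dex_CDGHDM. The beta globin Hbb-bs changed by -1.49 ± 0.29; the globin genes come in near-identical pairs, between which reads may be split. Of 6 thymus genes 1 was higher (3 to 4 under the other scalings, 2 without Saline 8 or 10 or Dex_CDGHDM 2 or 4) and 5 were within 1.5-fold. How much of the other changes moved with the amount of blood, fat or heart muscle in a lobe was not tested.

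Housekeeping groups did not behave alike. All 20 ribosomal protein genes were within 1.5-fold and uncalled on the deposited scale. Under the other scalings 8 to 18 were called higher and 0 to 1 lower, and up to 2 were higher without Saline 4 or Dex_CDGHDM 4. On the deposited scale Rps9 was at 0.22 ± 0.10 and Rpl13 at -0.01 ± 0.11, and Rpl13 was at 0.19 with a common sum. Genes of the mitochondrial genome were lower in 12 of 13 cases and higher in 0, with mt-Nd2 going from 558, 721, 615, 601 and 711 TPM to 291, 358 and 406 TPM (-0.86 ± 0.13). Of 25 proliferation genes 12 were higher, 0 lower and 12 within 1.5-fold. Top2a, a topoisomerase of dividing cells, went from 4.33, 6.49, 3.82, 4.95 and 5.64 TPM to 10.2, 12.1 and 14.9 TPM (1.13 ± 0.16) and Mki67 changed by 0.85 ± 0.16, while the replication clamp Pcna was within 1.5-fold (0.14 ± 0.09). Under the other scalings 20 to 23 proliferation genes were higher. Of 7 platelet genes 1 was higher and 1 lower; 4 to 5 were lower without Saline 4 or Dex_CDGHDM 2, and 0 without Saline 8 or 10 or Dex_CDGHDM 3 or 4. The number higher was 0 without Saline 2, 4, 5 or 10 or Dex_CDGHDM 1, 4, 5 or 6.

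**Figure D5:**
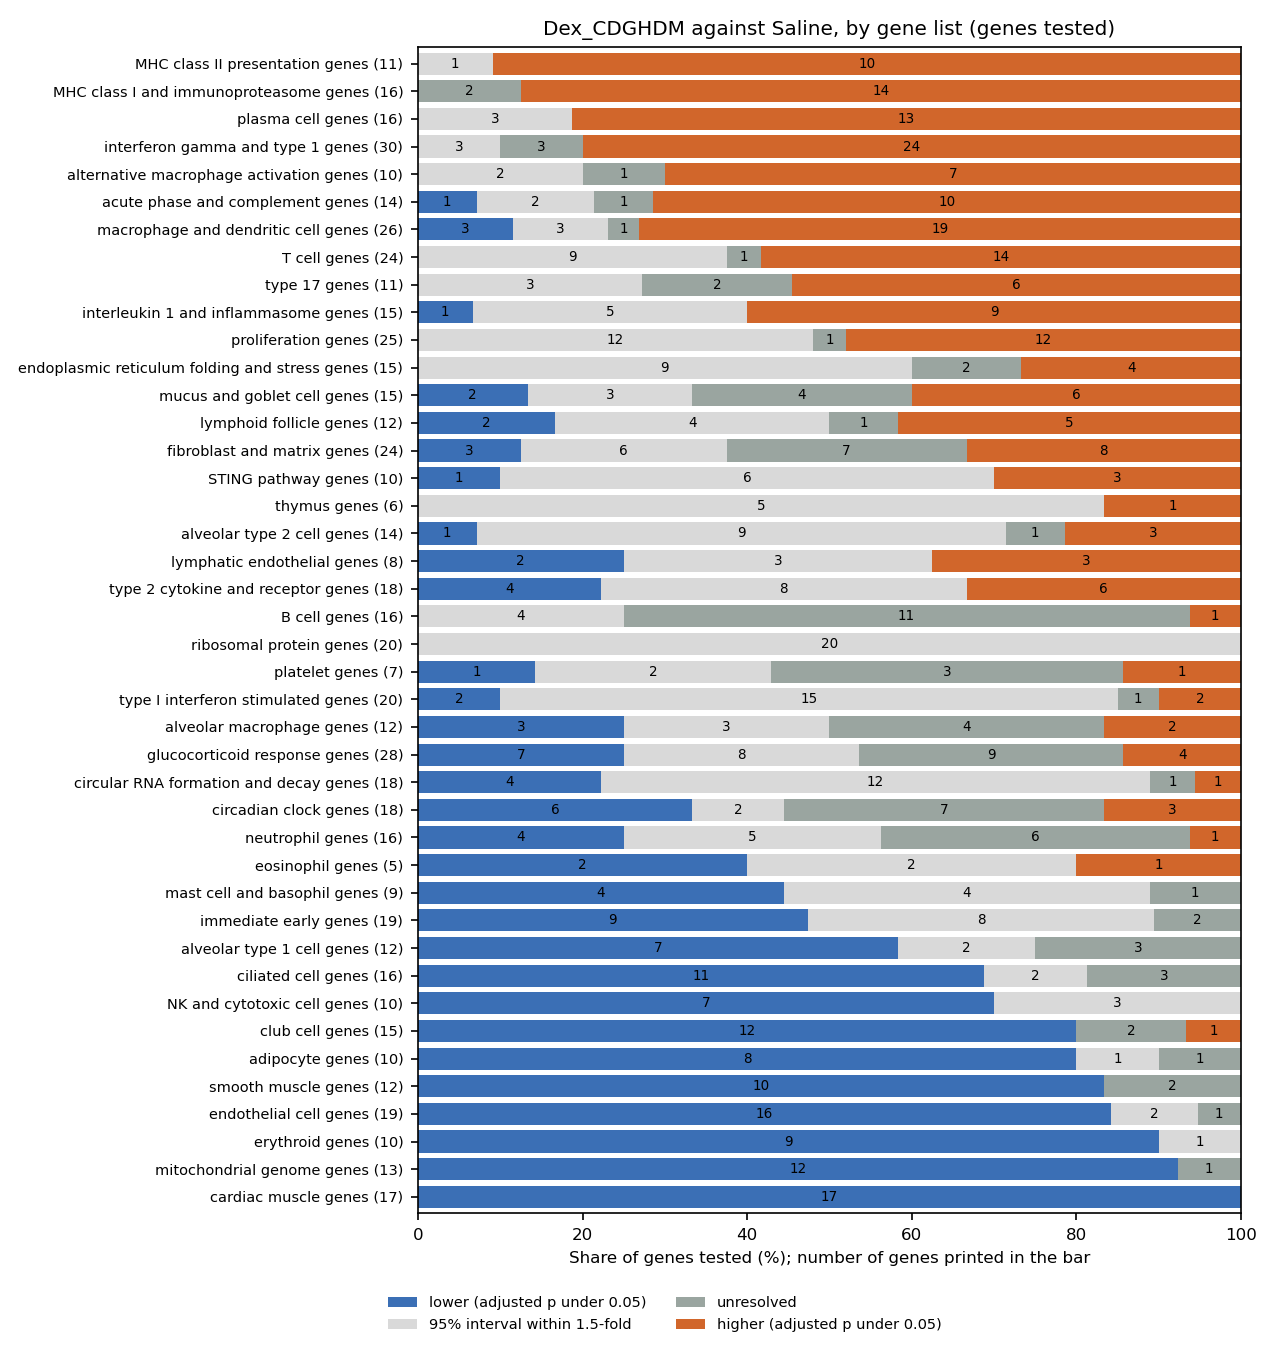
Share of the genes tested in each of 42 gene lists that were higher, lower, within 1.5-fold or unresolved in Dex_CDGHDM against Saline, with the number of genes printed in the bar and the number tested in brackets. The interferon gamma list has 24 of 30 higher, the cardiac list 17 of 17 lower and the ribosomal protein list 20 of 20 within 1.5-fold.

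Whether these distances differed from those of sensitized mice without dexamethasone was tested as Dex_CDGHDM minus CDG_HDM, in which Saline cancels. By limma no gene was higher (0%) and 1 gene was lower (0.00573%), with 693 genes at an unadjusted p under 0.05. In this contrast 16796 genes were within 1.5-fold and 640 unresolved. The gene called was Cpne7, of a family that binds membranes in response to calcium, named after its values were seen. It stood at 0.390, 0.346, 0.445, 0.604 and 0.587 TPM in Saline, 0.6248, 0.911 and 1.05 TPM in Dex_CDGHDM and 1.26 to 1.95 TPM across CDG_HDM. Its change was -0.49 ± 0.08 from CDG_HDM (adjusted p = 0.0452) and 0.34 ± 0.10 from Saline. The call ended without Saline 2, 5, 8 or 10 or any 1 of the treated libraries, each of which left 0 genes called. Measured from the same Saline libraries, 1631 genes were higher in CDG_HDM (9.35%) and 3976 lower (22.8%), beside the 1324 and 3052 of Dex_CDGHDM.

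The scaling mattered for this contrast, as an addition after the data were seen showed. Median-of-ratios scaling called 48 genes between the 2 sensitized groups (32 higher, 16 lower in Dex_CDGHDM), quantile normalization 63 (40 and 23) and a common sum 35 (29 and 6). The same 26 genes were called under all 3, of which 21 were higher and 5 lower in Dex_CDGHDM. Under median-of-ratios scaling 11 of the 21 were also called higher than Saline and 9 were within 1.5-fold of it. The largest of these rises were Tnni2, a troponin gene of fast muscle fibres (0.55 above CDG_HDM and 0.91 above Saline), and Mrvi1, a kinase substrate of smooth muscle (0.47 and 0.36). The pericyte receptor Pdgfrb was 0.27 above CDG_HDM and within 1.5-fold of Saline (-0.12). Xkrx, a membrane protein gene, was the largest of the 5 falls. It stood at 33.0, 12.8, 47.9, 32.2 and 19.3 TPM in Saline, 16.0, 23.1 and 43.1 TPM in Dex_CDGHDM and 11.7 to 199 TPM across CDG_HDM, where the lowest library lay below every treated library. Under median-of-ratios scaling it was at -1.97 against CDG_HDM and at 0.05 against Saline, where it was unresolved. Cd2 was at -0.48 against CDG_HDM and within 1.5-fold of Saline (0.11), and Gimap7, a GTPase gene of lymphocytes, was at -0.69 and 0.76.

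Circular RNAs arise when an exon end is joined back to an upstream exon start, and they are read here per gene symbol. Of 2271 genes tested on log2(TPM + 3.48e-06), 5 were called between Dex_CDGHDM and Saline (0.220%), 2 higher and 3 lower, with 207 at an unadjusted p under 0.05. Only 24 were within 1.5-fold and 2242 were unresolved, so for most circular genes a difference could not be told from none. Circular RNA of Plcg2, a phospholipase of B cells and macrophages, was above 0 in all 6 treated libraries (15.9 to 34.6 TPM) in 1 of 5 Saline libraries (19.9 TPM) and in all 10 CDG_HDM libraries. That of Sema5a, an axon guidance gene, was above 0 in all 6 treated libraries (3.29 to 5.80 TPM), in 0 of 5 Saline and in 2 of 10 CDG_HDM libraries. Pggt1b, a prenyltransferase subunit gene, was above 0 in all 5 Saline libraries (12.6 to 17.7 TPM) listed at 0 in all 6 treated ones and above 0 in 4 of 10 CDG_HDM libraries. Scel, a gene of alveolar type 1 cells, was above 0 in all 5 Saline libraries (1.67 to 9.46 TPM), at 0 in the treated ones and above 0 in 2 of 10 CDG_HDM libraries. For Dock4, an activator of small GTPases, both groups were above 0, at 83.7, 99.2, 72.9, 64.2 and 63.6 TPM in Saline and 29.0, 37.6 and 45.5 TPM in Dex_CDGHDM (log2 change -1.02 ± 0.21, adjusted p = 0.0280). Its linear RNA fell as well (-0.43 ± 0.11), and that of Scel by more (-1.45 ± 0.24). Linear RNA of Pggt1b (-0.12 ± 0.10) and Sema5a (-0.21 ± 0.12) was within 1.5-fold.

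Relative to linear RNA, 3 of 2266 genes were called (0.132%), Plcg2, Sema5a and Pggt1b, and 2209 were unresolved. These calls depend on single libraries. Without Saline 2 or 5 or Dex_CDGHDM 1 or 4, 1 circular gene was called, without Saline 4, 2 were and without Dex_CDGHDM 6, 3 were. For the ratio the number was 1 without Saline 2, 5 or 8 or Dex_CDGHDM 1, 4, 5 or 6, it was 2 without Saline 4, and it was 5 or 6 without Dex_CDGHDM 2 or Saline 10. A value of 0 in a TPM table has unknown depth behind it, so an absence cannot be told from a missed circle. The number of circular genes above 0 was 1592 ± 134 in Saline and 1497 ± 112 in Dex_CDGHDM (SD; exact permutation p = 0.232, adjusted p = 0.309). The sum of circular TPM was 64547 ± 15060 and 93693 ± 75842 (exact permutation p = 0.584), and without Dex_CDGHDM 4 the difference was -267.22 TPM. Of 18 genes linked to the formation and decay of circular RNA 1 was higher and 4 lower, beside 7.59% and 17.5% of all linear genes. Under the other scalings 5 to 7 were higher and 0 to 4 lower, beside 2930 to 4452 and 1794 to 3377 of all 17437 linear genes. The number lower was 1 to 2 without Saline 2, 5, 8 or 10 or Dex_CDGHDM 3 or 4, and the number higher was 0 without Saline 2, 4 or 5 or Dex_CDGHDM 1, 3 or 5. Qk, which brings exon ends together, was at -0.41 ± 0.14, Mbnl1 at 0.32 ± 0.12, and the splicing factors Hnrnpl (-0.13 ± 0.09) and Srsf1 (-0.04 ± 0.12) were within 1.5-fold.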

How the data were processed

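The authors deposited TPM (length-corrected transcript shares) per gene symbol for linear and for circular RNA, 27 libraries a table, with no read counts, so the depth behind a value is unknown. Per the submitters' processing notes CASAVA 1.9 and the mm10 build were used; which aligner and counting tool was used is not given in the sources used here. Per the labels' protocols, RNA had integrity numbers of 6.9 to 8.6. Read lengths of 150 and 100 bases are both stated.

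All 4 groups (Saline 5, CDG_HDM 10, AM155 6, Dex_CDGHDM 6) were fitted together in limma 3.58.1 (R 4.3.3), with a variance trend, on log2(TPM + 1). Of 21742 linear symbols 17437 had at least 1 TPM in at least 5 libraries, and p-values were adjusted over them by Benjamini and Hochberg. Circular genes above 0 in at least 5 libraries were fitted on log2(TPM + 3.48e-06), where a value of 0 lies far from any other and makes fitted changes very large. Intervals of 95% are per gene and not adjusted. In simulated data on 17437 genes, 2% of genes changed 1.5-fold were classed as within 1.5-fold, as were 94% of unchanged genes. A change of 1.5-fold lies on the bound itself, so a low share there follows from how the class is built. The noise was normal and drawn separately for each gene, with no shift common to a library, so the simulation does not cover the scaling. Library sums were compared by exact permutation tests, two-sided, whose smallest possible p is 0.00216. Samples were grouped by their titles. The labels number the libraries within a group and do not say that each came from a separate mouse, so p-values measure the spread between these samples, which may be technical.

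Genes were named as the 20 largest non-overlapping changes each way, up to 4 called and 3 uncalled members of each list, and 14 chosen by name. The rule also named large changes between the sensitized groups, and genes at least 2-fold changed in CDG_HDM yet within 1.5-fold in Dex_CDGHDM; no gene met either part. Every called circular gene was named. Named outside that rule, after their values were seen, were Arntl, B2m, C3, Ccl11, Ccl24, Cd4, Cd8a, Ciita, Col3a1, Cpne7, Dusp1, Foxp3, Gimap7, Il1rl1, Il4, Isg15, Mrvi1, Mt1, Mt2, Nos2, Pdgfrb, Retnla, Sgk1, Tmem161b, Tnni2, Tslp and Xkrx. The members, the gene lists and the tests were chosen with earlier results of these data known. The counts between the 2 sensitized groups under each alternative and the motif share of the type I list were added after the data were seen. Alternatives changed the pseudocount, the filter, the scaling, the libraries fitted, weights, the replicate block and each library in turn. A few genes counted in the lists are not reported here by name.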

Additional observations from a re-analysis of the deposited data

Results flagged for a closer look

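A library is listed here where its gap to the nearest other library of its group, divided by the range of the group, passed the 95% critical value of Dixon's test. Over 388 groups of values checked, 44 had such a library (11.3%), where chance gives about 5%. Circular TPM summed to 240800 in Dex_CDGHDM 4 and to 41290 to 109500 in the other 5 treated libraries, and its circular Sftpc was at 197500 TPM against 0 to 61470. In Saline 5 circular Sftpc was at 10680 TPM against 0 to 2.67 in the other 4. The share of the TPM scale outside both tables was 27.9% in Dex_CDGHDM 3 and 13.0% to 18.3% in the other 5. Linear genes follow by library, with the range of the other libraries of the same group in brackets.

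Dex_CDGHDM 1 stood high for Aim2 at 38.0 (21.3 to 26.3), Cd8a at 19.1 (8.73 to 12.2), Cxcl10 at 40.3 (10.4 to 14.4), Fcer2a at 40.6 (24.7 to 30.6) and Igtp at 102 (32.7 to 47.6) TPM. It was also high for Iigp1 at 175 (47.2 to 71.8), Lta at 3.29 (2.04 to 2.46), Mbnl1 at 341 (239 to 276), Muc5ac at 3.39 (0.840 to 1.69) and Nkg7 at 25.9 (11.1 to 13.9) TPM. The same library was high for Nlrc5 at 68.0 (29.9 to 43.7), Oas1a at 18.2 (12.2 to 14.4), S100a8 at 388 (131 to 191) and Tap1 at 118 (49.8 to 74.5) TPM. Further genes in which it stood high were Ubd at 52.2 (11.5 to 21.4) and Zbp1 at 45.5 (21.4 to 30.4) TPM. Dex_CDGHDM 2 stood high for Ednrb at 20.1 (8.70 to 12.9), Gsta3 at 68.5 (28.3 to 37.1), Klf2 at 75.1 (31.6 to 38.0), Nr4a1 at 24.6 (5.19 to 8.63) and Scel at 10.0 (4.31 to 5.74) TPM. It was also high for Scgb1a1 at 48230 (23900 to 32130) TPM. Dex_CDGHDM 2 stood low for Cxcr6 at 14.8 (26.6 to 33.7) TPM. Dex_CDGHDM 6 stood high for Adipoq at 5.45 (0.670 to 2.37), Cfd at 29.6 (4.97 to 12.2) and Marco at 1.69 (0.174 to 0.552) TPM. 

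Saline 10 stood high for Emcn at 34.0 (18.6 to 22.9), Slc26a4 at 6.79 (3.30 to 4.10) and Tnc at 11.6 (8.84 to 9.41) TPM. Saline 2 stood high for Ccl20 at 17.5 (4.39 to 5.52) and Prg2 at 2.63 (1.98 to 2.12) TPM. Saline 4 stood low for Nr3c1 at 75.0 (85.2 to 88.3), Srsf1 at 58.1 (87.1 to 92.7) and Stat6 at 100.5 (144 to 162) TPM. Saline 5 stood high for Il5 at 21.5 (13.3 to 13.9) and Klf15 at 21.2 (13.6 to 15.2) TPM. Saline 8 stood high for Il12rb2 at 2.53 (1.92 to 1.98) and Retnla at 95.8 (53.4 to 63.0) TPM. Saline 8 stood low for Bpifa1 at 105 (336 to 407) and Tnnc1 at 40.1 (96.0 to 110.2) TPM.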

How the results depend on the processing

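The direction of the linear sum and of the share outside the tables was the same without any 1 library (-118050 to -90327 TPM and 6.08 to 9.06 percentage points), and the count of circular genes above 0 differed by -142 to -49.5. The circular sum reversed to -267.22 TPM without Dex_CDGHDM 4 and otherwise ranged up to 39625 TPM. With 1 library left out, 1109 to 1367 genes were higher, 2275 to 4920 lower, 227 to 298 at least 2-fold higher, 180 to 255 at least 2-fold lower and 10414 to 12645 within 1.5-fold. Genes at least 2-fold lower numbered 333 with a pseudocount of 0.1 and 101 with a pseudocount of 5, which also left 139 at least 2-fold higher. Higher calls numbered 3152 under median-of-ratios scaling, 2930 under quantile normalization and 4452 with a common sum, where lower calls numbered 1794 and 117 were at least 2-fold lower. With array weights 7172 genes were lower and 8025 within 1.5-fold, and the narrower of the 2 other bounds tried left 5669 within; such a bound admits fewer genes by construction.

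The replicate block, the number in the sample titles, lowered the falls to 1873. Deviations of same-numbered Saline and Dex_CDGHDM libraries correlated at 0.08, -0.01 and 0.05, and those of differently numbered ones at -0.22 to 0.24. So few same-numbered libraries cannot tell whether they share more than a number. With the block, 1 circular gene and 1 ratio were called, and 0 genes between the sensitized groups. Calls between Dex_CDGHDM and CDG_HDM numbered 0 with a pseudocount of 0.1, 2 with no filter, 0 with a filter at 5 TPM, 48, 63 and 35 under the 3 scalings in the order above, 11 with array weights, and 0 to 1 with 1 library left out. Circular calls numbered 14 with a pseudocount of 1, 11 in a fit of the 11 libraries alone, and 1 to 7 with 1 library left out. Ratio calls numbered 1 among genes above 0 in at least 14 libraries and 1 to 6 with 1 library left out.

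Of 301 named genes under 22 settings, 214 kept their status as called or uncalled throughout, 30 lost a call, 52 gained one and 5 reversed. A change of sign counted as a reversal only where the main fit or the other setting called the gene. Uncalled genes near 0 could therefore change sign without being counted. The genes counted as reversed are named next. These were Nusap1 (0.11 under median-of-ratios scaling, 0.18 with a common sum), Scgb1a1 (0.00 under quantile normalization), and Irf3 (0.16), Pdpn (0.19) and Rpl13 (0.19), all 3 with a common sum. The cause of these changes was not tested. TPM hold no depth, so a low value or a 0 carries no known counting error.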

Other observations

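Tmem161b, which encodes a membrane protein, took 2 levels among the Saline libraries. It stood at 10.2, 8.53 and 10.3 TPM in Saline 2, 4 and 10 and at 498 and 543 TPM in Saline 5 and 8. All 6 Dex_CDGHDM libraries lay at the upper level, between 292 and 646 TPM, and the 10 CDG_HDM libraries between 211 and 618 TPM. Its change of 3.17 ± 0.74 from Saline (limma, adjusted p = 0.00176) was called although the groups overlapped, and it was singled out after its values were seen.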
